A study of Mus musculus with 302 samples.

Results

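Ifit1, Ifit3, Cxcl10 and Gbp3 are 4 genes that cells switch on when interferons reach them, and they are described here across the livers of 302 F2 mice. They were chosen by name, and every probe that the array's annotation names for them was taken. Each gene had 1 probe, so that 4 of the 10815 genes with a named probe are covered, and no value of the 4 was missing in any mouse.

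Interferons are secreted proteins that warn cells of infection. Type I interferons act through the receptor chains Ifnar1 and Ifnar2, and interferon-gamma, made mainly by T and NK cells, acts through Ifngr1 and Ifngr2. Both routes use Janus kinases and STAT proteins. The type I route ends largely at the interferon-stimulated response element, a DNA motif bound by a complex with Stat2 and Irf9, and the gamma route at the gamma-activated site. Ifit1 encodes a protein that binds viral RNA, Ifit3 encodes a relative of it, and both are typical type I targets. Cxcl10 encodes a chemokine that draws activated T cells, and it answers to both routes and to NF-kB. Gbp3 encodes a guanylate-binding protein, a GTPase of the defence against intracellular pathogens and a typical target of interferon-gamma. In the liver these genes are induced in hepatocytes and in resident macrophages, called Kupffer cells.

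The mice came from a cross of C57BL/6J with C3H/HeJ, and the labels describe males and females without saying which mouse is which. All of them ate chow with 4% fat to 8 weeks of age, then a Western diet with 42% fat and 0.15% cholesterol for 12 weeks, and were killed at 20 weeks after a 12-h fast. There was no other diet, no infection and no control group, and C3H/HeJ is known for an inactive endotoxin receptor Tlr4, of which the labels give no genotype by mouse. Each array set the liver RNA of 1 mouse against a pool of equal parts of all RNAs, and each mouse is 1 sample.

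Values are read as log10 of mouse over pool, so that 0 is the pool's level. The base and direction are likely but not stated by the submitters. Correlations between genes do not depend on either, whereas high and low do. Such ratios give no level of a gene against another gene, and they cannot show whether the livers' own marker genes are expressed. In whole liver, more cells of a type and more RNA per cell cannot be told apart.

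Over the whole table, the median of an array lay between -0.0117 and 0.0174, and the SD over its probes between 0.0696 and 0.258, with 3 arrays above 2 times the middle value of 0.0975. The lowest correlation between arrays was -0.519, and 1035 of 45451 pairs lay under -0.3. The mice were centred in 4 blocks. The Y-linked gene Eif2s3y split them into 142 with low and 160 with high values, with no value between -0.968 and -0.437. Mouse numbers in the titles, from 51 to 362, were split at 212, and this gave 77 low Eif2s3y mice up to 212, 65 above it, 82 high Eif2s3y mice up to 212 and 78 above it. Blocks are not groups of the study, and differences between them are given without a test.

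The 250 bases before each gene's start are shown because they hold the motif through which interferons are known to act. They come from RefSeq on GRCm38.p6, and capitals mark the interferon-stimulated response element searched as GAAANNGAAA on both strands, where overlapping matches run into a single capital stretch.
Ifit1, chr19:34640639-34640888, plus strand: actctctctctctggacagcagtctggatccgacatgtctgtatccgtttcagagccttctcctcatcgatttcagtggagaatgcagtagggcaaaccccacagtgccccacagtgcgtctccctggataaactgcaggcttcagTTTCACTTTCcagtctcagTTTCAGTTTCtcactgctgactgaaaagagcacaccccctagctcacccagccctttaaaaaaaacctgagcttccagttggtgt
Ifit3, chr19:34583279-34583528, plus strand: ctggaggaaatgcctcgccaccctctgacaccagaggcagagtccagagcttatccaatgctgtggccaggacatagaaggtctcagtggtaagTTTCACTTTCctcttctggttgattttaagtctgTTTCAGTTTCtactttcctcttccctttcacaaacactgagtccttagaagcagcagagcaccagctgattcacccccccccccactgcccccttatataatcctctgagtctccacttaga
Cxcl10, chr5:92348890-92349139, minus strand: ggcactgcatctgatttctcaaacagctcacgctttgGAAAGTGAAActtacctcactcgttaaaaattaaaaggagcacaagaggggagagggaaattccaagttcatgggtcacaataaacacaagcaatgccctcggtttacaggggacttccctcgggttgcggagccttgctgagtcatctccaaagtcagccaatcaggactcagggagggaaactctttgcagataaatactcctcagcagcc
Gbp3, chr3:142559794-142560043, plus strand: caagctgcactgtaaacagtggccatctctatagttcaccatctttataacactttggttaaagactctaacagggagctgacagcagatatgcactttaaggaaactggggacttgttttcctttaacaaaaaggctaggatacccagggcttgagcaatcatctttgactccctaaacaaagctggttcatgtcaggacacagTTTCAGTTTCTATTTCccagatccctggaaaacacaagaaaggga

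All 4 windows held the element. Ifit1 had it 104 to 95 and 85 to 76 bases before the start, and Ifit3 156 to 147 and 122 to 113 bases before it, in both genes as the same pair of letters, TTTCACTTTC and then TTTCAGTTTC. Cxcl10 had GAAAGTGAAA, which is the reverse complement of TTTCACTTTC, 213 to 204 bases before its start. Gbp3 had 2 overlapping matches between 45 and 30 bases before the start of the window shown, and a second RefSeq start of Gbp3 had none in its own window. Of all 32851 RefSeq promoter windows 2.98% held the element. Cxcl10 also had GGGACTTCCC, a match to the NF-kB motif searched as GGGANTTNCC, 103 to 94 bases before its start, and 0.98% of all windows held that motif. The gamma-activated site, searched as TTCNNNGAA, was in none of the 5 windows of the 4 genes and in 7.02% of all windows. These are matches of letters, not measured binding.

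Cxcl10 varied most among the 4 genes, and each of them varied far more than the usual probe. Within blocks the SD was 0.229 for Cxcl10, with a 95% interval from 0.207 to 0.247 over resampled mice. It was 0.159 for Ifit1 (0.145 to 0.171), 0.159 for Ifit3 (0.144 to 0.171) and 0.158 for Gbp3 (0.139 to 0.178), while the median over all probes was 0.0613. The intervals of Ifit1, Ifit3 and Gbp3 overlap, and that of Cxcl10 lies above all 3. As a ratio between the 95th and the 5th percentile within blocks, the spread was 5.55-fold for Cxcl10, 3.32-fold for Ifit1, 3.13-fold for Ifit3 and 3.13-fold for Gbp3.

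Ifit1, before centring, ran from -0.447 through a median of -0.0674 to 0.445. Ifit3 ran from -0.522 through -0.0306 to 0.453. Cxcl10 ran from -0.893 through -0.154 to 0.766, and Gbp3 from -0.547 through -0.0709 to 1.04. Both Ifit genes thus spanned about the same range, while Cxcl10 reached further down than the others and Gbp3 had the highest single value.

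Gbp3 was the gene that differed most between blocks, which held 46.1% of its variance, against 27.3% for Cxcl10, 20.5% for Ifit1 and 14.7% for Ifit3. Up to mouse 212, Gbp3 had a median of 0.0765 in the 77 low Eif2s3y mice, from -0.217 to 0.548, and of -0.196 in the 82 high Eif2s3y mice, from -0.547 to 0.246. Above 212 the medians were 0.114 in the 65 low Eif2s3y mice, from -0.262 to 1.04, and -0.192 in the 78 high Eif2s3y mice, from -0.520 to 0.170. The low Eif2s3y medians were 1.87 and 2.03 times the high ones, and the ranges overlapped. For Ifit1, Ifit3 and Cxcl10 the medians were also higher in low Eif2s3y mice at both ranges of mouse number, by 1.26-fold to 1.61-fold.

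Cxcl10 had the widest gap between the medians up to and above mouse 212. Its median was -0.176 in low Eif2s3y mice above 212 and 0.00646 in those up to 212, and it was -0.383 in high Eif2s3y mice above 212 and -0.0945 in those up to 212. All these ranges overlapped. For Ifit1, Ifit3 and Gbp3 the medians before and after 212 differed by no more than 1.18-fold within either Eif2s3y range.

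**Figure D1:**
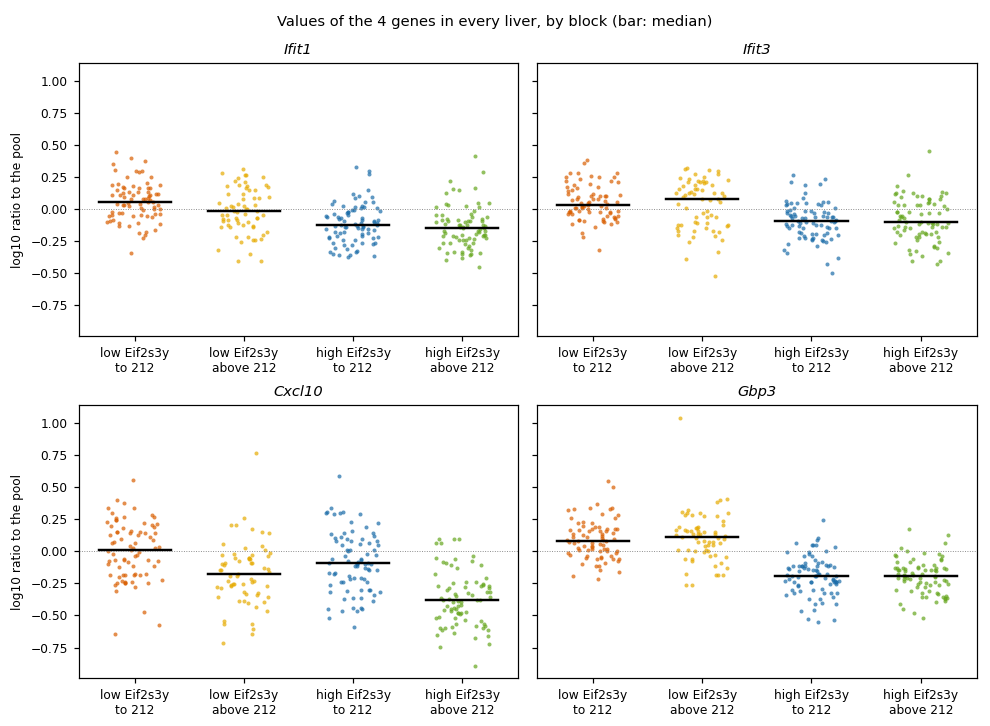
Each point is 1 liver, the vertical axis is the log10 ratio to the pool, and bars are block medians. Gbp3 medians lie at 0.0765 and 0.114 in the low Eif2s3y blocks and at -0.196 and -0.192 in the high ones, and Cxcl10 is lowest in high Eif2s3y mice above number 212, at -0.383.

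A trend with mouse number was also present inside the blocks, fitted as a single slope common to them all, so that single blocks may differ. Per 100 numbers Cxcl10 fell by 0.145 ± 0.0280 (slope and SE, limma, adjusted p = 3.47e-06 over all probes), Ifit3 fell by 0.0950 ± 0.0195 (adjusted p = 1.43e-05) and Ifit1 fell by 0.0795 ± 0.0198 (adjusted p = 0.000378). The slope of Gbp3 was -0.0252 ± 0.0201, which did not pass (adjusted p = 0.335). In that fit 19.3% of all probes passed with a positive slope and 20.1% with a negative slope, so 3 of 4 genes stand against a background in which trends with the number were common. What the mouse number stands for is not in the labels. Once the main axis of variation over all probes, described below with the Cxcl10 results, was in the model, the slope was -0.0732 for Cxcl10, -0.0901 for Ifit3 and -0.0863 for Ifit1.

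**Figure D2:**
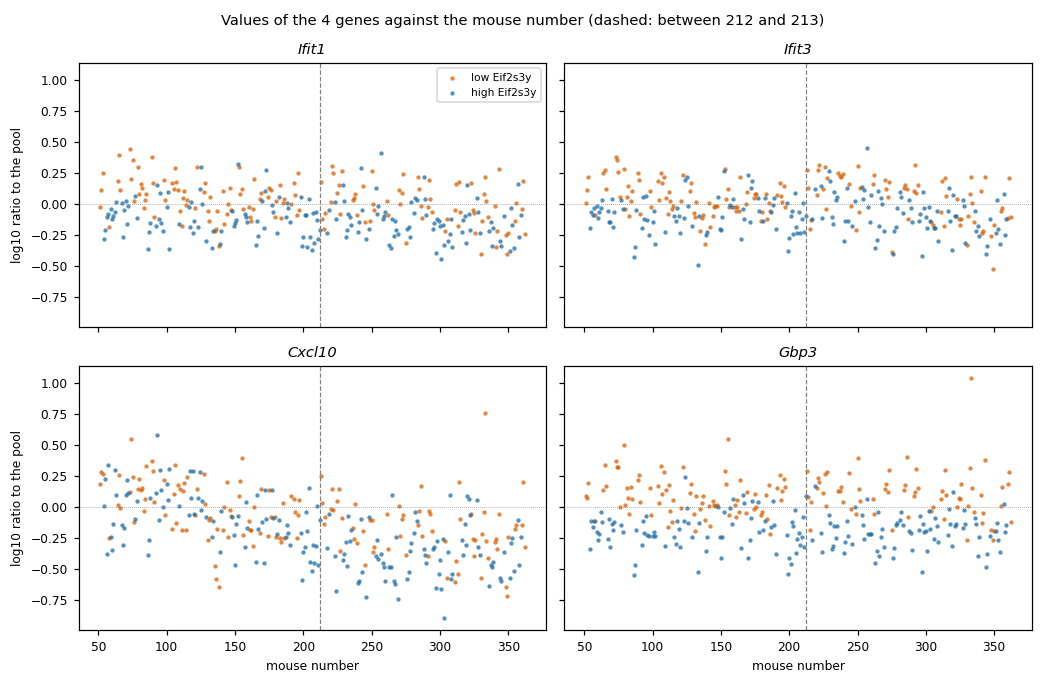
The horizontal axis is the mouse number and the vertical axis the log10 ratio to the pool. Cxcl10 is mostly lower at high mouse numbers, and whether it falls inside every block was not tested. Single high points stand at mouse 333 in Cxcl10 and Gbp3. Gbp3 shows no clear decline with the number and is mostly higher in low Eif2s3y mice.

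The 4 genes rose and fell together across livers, and Ifit1 and Ifit3 did so most closely. Their centred values had r = 0.845 (95% interval 0.809 to 0.875) and rho = 0.840 over 302 mice, with permutation p = 1e-05 for each, the smallest that 100000 permutations within blocks can give. All of the 6 pairs had that smallest p for r and for rho, and p-values adjusted over the 6 pairs are the same. Whether the Ifit3 probe also binds the near-identical relative Ifit3b was not tested.

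Gbp3 was related to Ifit3 with r = 0.718 (rho = 0.743) and to Ifit1 with r = 0.653 (rho = 0.664). Cxcl10 was related to Gbp3 with r = 0.618 (rho = 0.607), to Ifit1 with r = 0.525 (rho = 0.525) and to Ifit3 with r = 0.519 (rho = 0.529). The interval of the pair of Ifit genes lies above those of the other 5 pairs. Without the 2 mice that lay farthest out in the gene named first in each pair, r ran from 0.518 to 0.836. Inside single blocks the pair of Ifit genes had r from 0.786 to 0.913, and Ifit1 with Cxcl10 had 0.634 and 0.647 in the low Eif2s3y blocks but 0.396 and 0.436 in the high ones, a difference that was not tested.

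The mice at the top were only partly the same. Among the 30 highest of the 302 mice for each gene after centring, 18 were shared by Ifit1 and Ifit3, 16 by Ifit1 and Gbp3, and 11 by Ifit3 and Gbp3. Cxcl10 shared 9 with Gbp3, 7 with Ifit1 and 7 with Ifit3. The number that unrelated genes would share was not computed. A single mouse was among the 30 highest for all 4 genes, whereas 7 mice were among the 30 lowest for all 4. Mouse 257 was highest for Ifit1 (0.550 above its block mean) and Ifit3 (0.538), yet its Cxcl10 was at -0.00670. Mouse 333 was highest for Cxcl10 (0.942) and Gbp3 (0.933), with Ifit1 at 0.234 and Ifit3 at 0.181. Without mouse 333, left out after its values were seen, Cxcl10 with Gbp3 had r = 0.588 and the SD of Gbp3 was 0.149.

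**Figure D3:**
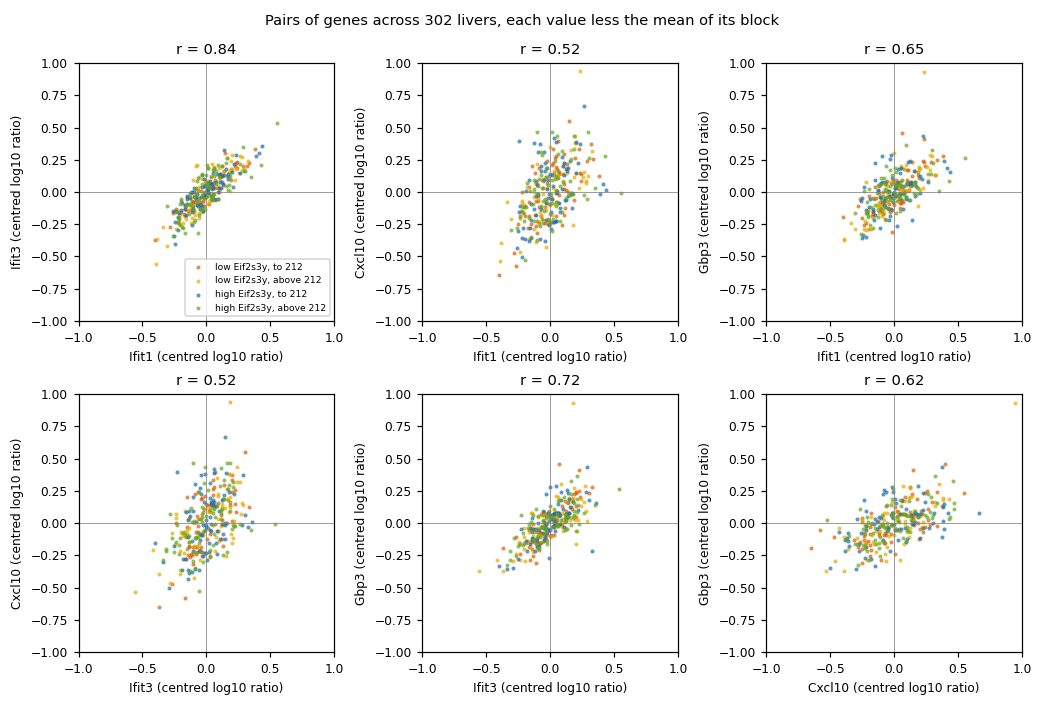
Each point is 1 liver with both values centred in its block, coloured by block. The panel of Ifit1 against Ifit3 is the narrowest at r = 0.845, and the isolated point at the top right of the panel of Cxcl10 against Gbp3 is mouse 333.

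Each gene was then set against all other probes, with the slope of a probe on the gene fitted within blocks by limma and called at an adjusted p under 0.05 over all probes. The measure of likeness is the partial r of that fit over 302 livers. Ifit1 had few relations: 5.14% of 23511 probes passed with a positive and 4.98% with a negative slope. For Ifit3 the shares were 4.97% and 6.31%, and for Gbp3 9.43% and 18%. Cxcl10 was related to more probes than not, with 20.2% positive and 33.9% negative, so a single relation with Cxcl10 says less than the same relation with Ifit1.

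The genes most like Ifit1 were Rtp4, a chaperone-like protein induced by interferon (r = 0.81), the antiviral enzyme Rsad2, also called viperin (0.78), the Irf7 translation repressor Oasl1 (0.75), Irf9 (0.72), the RNA sensor Ifih1, also called MDA5 (0.70), and the immunity-related GTPase Irgm1 (0.69). In limma the adjusted p-values for them ran from 7.00e-68 for Rtp4 to 2.99e-40 for Irgm1. All 6 are known interferon targets. The lowest r among genes that passed were those of the lipid droplet protein Plin4 (-0.38) and of Emc8, a subunit of the ER membrane protein complex (-0.37).

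Ifit3 had nearly the same company. The 20 genes of highest r with Ifit3 and the 20 of highest r with Ifit1 shared 16 genes, among them Rtp4 (0.75), Oasl1 (0.72) and Rsad2 (0.67). Parp14, an ADP-ribosyltransferase (0.71), and Ifit2 (0.68) also stood near the top. Emc8 was at -0.30 and Pemt, which makes phosphatidylcholine, at -0.29. The r of Pemt was 0.057 without blocks.

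Gbp3 was most like the GTPase Tgtp1 (r = 0.82), the nucleotide hydrolase Samhd1 (0.80), Gbp8 (0.75), Igtp (0.74), Irgm1 (0.73) and Gbp2 (0.73). Tgtp1, Igtp and Irgm1 belong to the immunity-related GTPases and Gbp8 and Gbp2 to the family of Gbp3. Igtp and Tgtp1 lie on chromosome 11, Samhd1 on chromosome 2 and Gbp8 on chromosome 5, so these are not neighbours of Gbp3 on chromosome 3. Gbp3 shared 12 of its 20 nearest genes with Ifit3, 9 with Ifit1 and 4 with Cxcl10. Lowest were Fbxo31, part of a ubiquitin ligase (-0.41), and the growth factor Nrtn (-0.38), whose own spread was small at an SD of 0.0262.

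Cxcl10 stood in other company. Its nearest genes were Cd274, the immune checkpoint ligand PD-L1 (r = 0.75), the myeloid surface protein Slamf8 (0.72), the chemokine Ccl4 (0.71), the oligoadenylate synthetase-like Oasl2 (0.71), the bacterial lipoprotein receptor Tlr2 (0.70) and the monocyte chemokine Ccl2 (0.69). It shared 1 of 20 nearest genes with Ifit1, namely Rtp4, which was also the gene shared by all 4 lists of 20, and 2 with Ifit3. Lowest were the orphan receptor Gpr37l1 (-0.59) and the interleukin-1 receptor Il1r1 (-0.56).

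Cxcl10 was itself related to the main axis of variation over all probes, with r = 0.605. For Gbp3, Ifit3 and Ifit1 that r was 0.228, 0.119 and -0.0156. This axis is the first principal component of the values centred in blocks, and it held 11.4% of their variance. With it in the model, 2774 probes rose with Cxcl10 and 3219 fell, against 4759 and 7965 without it. Counts of listed genes with Cxcl10 are therefore also given with the axis in the model.

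The response element was common among the nearest genes of both Ifit genes. Of the 20 genes most like Ifit1, 16 had a promoter window, and 8 of these held GAAANNGAAA. For Ifit3 it was 10 of 18, for Gbp3 6 of 17 and for Cxcl10 2 of 12, while of all 8590 measured genes with a window 3.53% held it. The NF-kB motif was in 2 of the 12 windows of genes nearest to Cxcl10, in none of those of the other 3 genes and in 1.40% of measured genes. The gamma-activated site was in 6 of 17 windows for Gbp3, 4 of 16 for Ifit1, 4 of 18 for Ifit3 and 1 of 12 for Cxcl10, with 7.32% among measured genes. These counts describe genes that were picked by r, and none was tested.

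Type I interferon targets rose with all 4 genes. Of 26 measured targets other than the 4 genes, 23 rose with Ifit1, 23 with Ifit3, 23 with Gbp3 and 19 with Cxcl10. The median r was 0.50 for Ifit1, 0.52 for Ifit3, 0.49 for Gbp3 and 0.47 for Cxcl10, against -0.028 for Cxcl10 and -0.011 for Ifit1 over all 10811 other named genes. Irf7, the transcription factor that amplifies type I interferon production, had r = 0.58 with Ifit1, 0.63 with Ifit3, 0.64 with Gbp3 and 0.55 with Cxcl10. The apoptosis-linked Xaf1 was the only target that fell, with Cxcl10 (-0.34) and Gbp3 (-0.23), and its spread was small at an SD of 0.0445. Adding the main axis gave 23 targets that rose with Cxcl10 and none that fell with Cxcl10 or Gbp3. The RNase L activator Oas3 and the dynamin-like Mx1 passed with none of the 4, and their r ran from -0.0061 to 0.12.

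Interferon-gamma targets had their highest median r with Gbp3. Of 17 measured targets 16 rose with Gbp3, and 14 rose with each of Ifit1, Ifit3 and Cxcl10. The median r was 0.61 for Gbp3, 0.50 for Cxcl10, 0.40 for Ifit3 and 0.30 for Ifit1. Igtp had r = 0.74 with Gbp3, 0.61 with Ifit1, 0.60 with Ifit3 and 0.48 with Cxcl10. With Cxcl10 and the main axis 15 rose. Nos2, which makes nitric oxide in activated macrophages, passed with none of the 4, with r from -0.12 to 0.038.

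**Figure D4:**
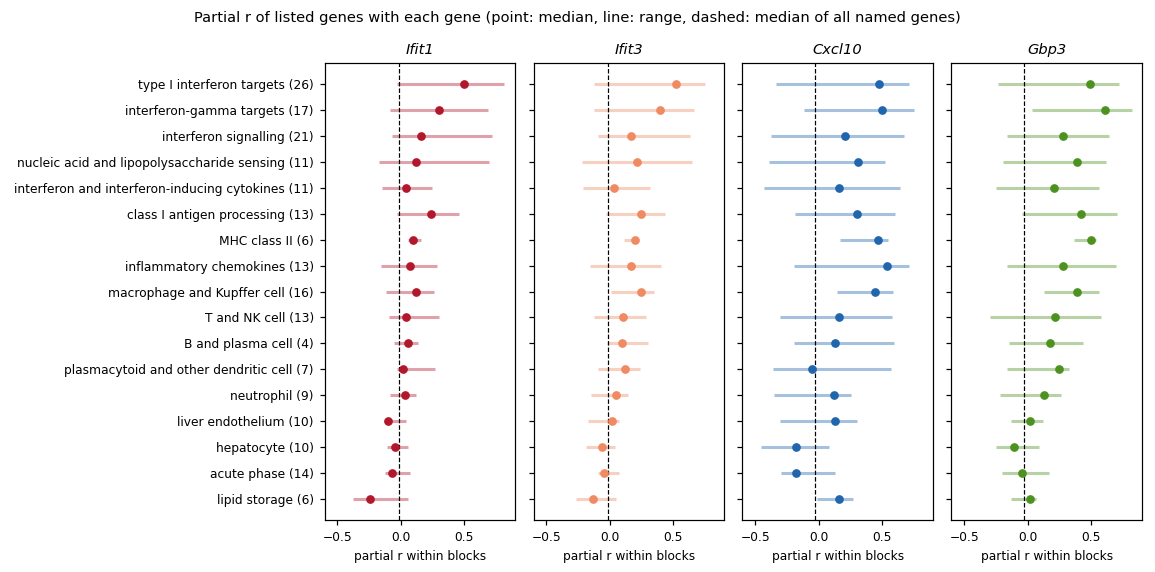
Rows are gene lists with the number of genes measured, columns the 4 genes, and the horizontal axis the partial r within blocks. Points are list medians and lines run from the lowest to the highest gene. Type I targets have medians of 0.47 to 0.52 in all 4 columns, while the median of MHC class II genes is 0.095 for Ifit1 and 0.47 for Cxcl10.

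Among the interferons themselves, Ifng, which encodes interferon-gamma, rose with all 4 genes. Its r was 0.56 with Gbp3, 0.44 with Cxcl10, 0.29 with Ifit3 and 0.24 with Ifit1 (limma adjusted p from 4.23e-24 to 0.001). The 3 type I interferon genes of the list that were measured did not rise with any of the 4. Ifnb1 had r from -0.14 to -0.014, Ifna1 from -0.15 to -0.049 and Ifna2 from -0.43 to -0.15. All 3 fell with Cxcl10, and Ifna2 fell with Ifit3 and Gbp3 too. Ifna2 had an SD of 0.0370, below that of the median probe, and once the main axis was in the model, 5 of the 11 cytokine genes of the list rose with Cxcl10 and none fell, against 6 and 3 without it. The lymphocyte growth factor Il15 rose with all 4, most with Cxcl10 (0.59) and Gbp3 (0.52), and Tnf rose most with Cxcl10 (0.64).

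The receptors and signalling genes moved less than the targets. Of 21 measured signalling genes 15 rose with Gbp3, 14 with Cxcl10, 12 with Ifit3 and 9 with Ifit1. Irf9, which joins Stat2 on the response element, had its highest r with Ifit1 (0.72), then Ifit3 (0.60), Gbp3 (0.48) and Cxcl10 (0.31). Stat2 rose with all 4 at r from 0.25 to 0.31. Irf1, the early factor of the gamma route, ran the other way round from Irf9, with 0.50 for Cxcl10, 0.45 for Gbp3, 0.33 for Ifit3 and 0.23 for Ifit1.

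The gamma receptor chain Ifngr1 rose with Cxcl10 (0.55), Gbp3 (0.33) and Ifit3 (0.16), and its r with Ifit1 was 0.037. The type I receptor chain Ifnar2 rose with Cxcl10 (0.37), Gbp3 (0.30) and Ifit3 (0.27), and its r with Ifit1 was 0.084. The myeloid factor Irf8 had r = 0.50 with Cxcl10, 0.47 with Gbp3, 0.17 with Ifit3 and 0.032 with Ifit1. Of the inhibitors, Socs1 rose most with Cxcl10 (0.67), and Usp18, which blocks the type I receptor, rose with Ifit1 (0.58), Ifit3 (0.53) and Gbp3 (0.42), with r = 0.10 for Cxcl10. Jak1, Stat3, Irf2, Socs3 and Pias1 fell with Cxcl10, and none of the 5 did so with the main axis in the model, where 14 signalling genes rose as before. Pias1 also fell with Gbp3 (-0.16). Of the others, the kinase Jak2 passed with Gbp3 (0.34) and with none of the other 3, and Tyk2 rose with Cxcl10 (0.18) and Gbp3 (0.15). The phosphatase Ptpn6 had r = 0.52 with Cxcl10 and 0.17 to 0.28 with the other 3. Irf5 rose with all 4, at 0.25 to 0.42, though its r with Gbp3 was -0.040 without blocks. Irf3 rose with Cxcl10 (0.15).

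Sensors of nucleic acids and endotoxin rose in part: 9 of 11 rose with Gbp3, 8 with Cxcl10, 7 with Ifit3 and 5 with Ifit1, while the DNA sensor Tlr9 fell with all 4, at r from -0.39 to -0.17. In the model with the main axis 6 sensors rose and 1 fell with Cxcl10, against 8 and 2 without it. With Gbp3 8 then rose and none fell, so Tlr9 no longer fell with Gbp3. The double-stranded RNA receptor Tlr3 rose with all 4, at r from 0.41 to 0.48. Ifih1 was close to Ifit1 (0.70) and far less close to Cxcl10 (0.24). Class I antigen processing genes, which load peptides for cytotoxic T cells, rose for 11 of 13 with Gbp3, 9 with Cxcl10 and 8 with each Ifit gene, while Erap1, which trims peptides, fell with Cxcl10 and with the main axis in the model did not. The immunoproteasome subunit Psmb9 had r = 0.66 with Gbp3 and 0.42 with Ifit1.

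MHC class II genes present peptides to helper T cells. All 6 class II genes rose with Cxcl10 and with Gbp3, 4 rose with Ifit3 and none with Ifit1, where r ran from 0.057 to 0.16. All 6 also rose with Cxcl10 when the main axis was added, and without blocks 2 rose with Ifit1. H2-Aa, a class II chain, had r = 0.55 with Cxcl10, 0.52 with Gbp3, 0.19 with Ifit3 and 0.085 with Ifit1. Of 16 macrophage and Kupffer cell markers, 16 rose with Cxcl10, 14 with Gbp3, 10 with Ifit3 and 4 with Ifit1. The signalling adaptor Tyrobp had r = 0.59 with Cxcl10 and 0.12 with Ifit1, and Adgre1, which encodes the F4/80 antigen, had 0.56 with Gbp3 and 0.21 with Ifit1. In the model with the main axis 9 macrophage markers rose and 1 fell with Cxcl10, 12 rose with Gbp3, and 8 rose and 1 fell with Ifit1. Without blocks 11 rose and 2 fell with Ifit1.

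Inflammatory chemokines rose for 10 of 13 with Cxcl10, 10 with Gbp3, 7 with Ifit3 and 4 with Ifit1. Ccl2 had r = 0.69 with Cxcl10, 0.35 with Gbp3, 0.18 with Ifit3 and 0.072 with Ifit1. Cxcl9, which shares its receptor with Cxcl10, had r = 0.69 with Gbp3, 0.57 with Cxcl10, 0.40 with Ifit3 and 0.28 with Ifit1. The neutrophil chemokine Cxcl1 fell with Cxcl10 (-0.20), and the membrane-bound chemokine Cx3cl1 fell with Cxcl10 and Gbp3. None of these falls passed with the main axis in the model, where 10 rose with Cxcl10 and 8 with Gbp3.

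Markers of lymphocytes moved in both directions with Cxcl10 and Gbp3. Over all probes 20.2% rose and 33.9% fell with Cxcl10, and 9.43% rose and 18% fell with Gbp3, so falls are not particular to these markers. Of 13 T and NK cell markers 8 rose with Gbp3, 8 with Cxcl10, 5 with Ifit3 and 3 with Ifit1. Granzyme B, Gzmb, had r = 0.58 with Gbp3, and Cd3g of the T cell receptor complex had 0.48. Cd4 (-0.31), Cd3e, Cd8b1 and the NK receptor gene Ncr1 fell with Cxcl10, and Cd4 (-0.29) and Cd3e fell with Gbp3. Adding the main axis gave 6 that rose and 1 that fell with Cxcl10, and 8 and 1 with Gbp3. Without blocks 7 rose and 2 fell with Ifit1, and 8 rose and 2 fell with Ifit3. Of 4 B cell markers, 2 rose with Cxcl10, 2 with Gbp3, 2 with Ifit3 and none with Ifit1, and the antigen receptor gene Cd79a fell with Cxcl10. Neutrophil markers rose with neither Ifit gene, and 4 of 9 rose with Cxcl10 and 4 with Gbp3, with r up to 0.25 and 0.27, while 2 fell with Cxcl10 and 1 with Gbp3. Of 7 plasmacytoid and other dendritic cell markers 5 rose with Gbp3, 3 with Cxcl10, 2 with Ifit3 and 1 with Ifit1, namely Bst2, which is itself an interferon target. Adding the main axis changed the Cxcl10 counts to 1 B cell, 1 neutrophil and 2 dendritic cell markers that rose, and none of these 3 lists had a marker that fell. The part that cell numbers have in these relations was not tested.

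Few genes of the liver cell itself passed with the Ifit genes within blocks, and few of all probes did so. Over all probes 5.14% rose and 4.98% fell with Ifit1, and 4.97% rose and 6.31% fell with Ifit3. With Cxcl10 20.2% rose and 33.9% fell, and with Gbp3 9.43% rose and 18% fell. Few calls with the Ifit genes are thus not particular to these lists. None of 10 hepatocyte markers passed with Ifit1 and 1, the amino acid enzyme Tat, fell with Ifit3 (-0.18), while 6 fell with Cxcl10, or 3 with the main axis, and 5 fell with Gbp3. Of 14 acute phase genes none passed with either Ifit gene. With Cxcl10 9 fell and 1, Orm2, rose (0.13), and with the main axis in the model 1 rose and 1 fell. Without blocks 4 hepatocyte markers and 7 acute phase genes fell with Ifit1, and 5 and 6 with Ifit3. Of all 23511 probes 3923 then fell with Ifit1 and 4211 with Ifit3. Of 10 liver endothelial markers none rose with Ifit1, Ifit3 or Gbp3, and 5 rose with Cxcl10, of which none did so with the main axis, where 4 fell.

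Lipid storage genes fell with Ifit1. Of 6 measured genes that store fat in droplets or take it up, 5 fell. They were Plin4 (r = -0.38), Fitm1 (-0.29), the lipid droplet protein Cidea (-0.24), the fat cell regulator Pparg (-0.24) and the fatty acid transporter Cd36 (-0.17). The sixth, G0s2, an inhibitor of fat breakdown, had r = 0.059. With Ifit3 2 fell, Plin4 (-0.26) and Fitm1 (-0.19), and with Gbp3 none passed. With Cxcl10 4 rose: Pparg (0.27), Cidea (0.19), Fitm1 (0.18) and Cd36 (0.14). With Ifit1, 5 fell with the main axis in the model too and 3 without blocks, whereas with Cxcl10 and the main axis none rose and 4 fell.

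A model with Ifit1, Cxcl10 and Gbp3 together, each in units of its SD within blocks, tests what each adds at given values of the other 2. Ifit3 was left out because it follows Ifit1 so closely. Probes passed for Ifit1 in 17.6% (positive) and 12.6% (negative), for Cxcl10 in 23.3% and 32.5%, and for Gbp3 in 9.54% and 11.1%. For Ifit1 both shares are larger than when it stood alone, where 1209 probes rose and 1171 fell. With the main axis in the joint model 1341 rose and 1240 fell with Ifit1, near the counts of Ifit1 alone. With Ifit3 in place of Ifit1, 1627 rose and 1888 fell with Ifit3. Coefficients are log10 ratios of the gene per SD.

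At given Cxcl10 and Gbp3, 15 of the 26 type I targets rose with Ifit1 and none fell, against 23 when Ifit1 stood alone. They were led by Oasl1 (0.120 ± 0.00750, coefficient and SE), Usp18 (0.110 ± 0.0107) and Rsad2 (0.101 ± 0.00667), picked here for their values. With Cxcl10 15 rose and 8 fell, and with Gbp3 17 rose and 2 fell. Usp18 was at -0.0685 ± 0.0103 for Cxcl10, so it was lower in livers with more Cxcl10 at the same Ifit1 and Gbp3 (limma adjusted p = 1.25e-09). Once the main axis was added, 19 targets rose and 1 fell with Ifit1, and 1 rose and 7 fell with Cxcl10.

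In the same model 15 of the 17 interferon-gamma targets rose and none fell with Gbp3, while 12 rose and 1 fell with Cxcl10. With Ifit1 5 rose and 10 fell, whereas 14 had risen and none had fallen when Ifit1 stood alone. The counts of the joint model with the main axis were 15 and 0 for Gbp3, 12 and 0 for Cxcl10 and 1 and 8 for Ifit1. The genes with the highest Gbp3 coefficient were its neighbour Gbp2b (0.206 ± 0.0192), Tgtp1 (0.202 ± 0.0118) and Ubd, a ubiquitin-like protein also called FAT10 (0.180 ± 0.0229). For Ubd the coefficient was -0.0455 without blocks. All 6 class II genes rose with Gbp3 and fell with Ifit1 at fixed values of the others, with the main axis in the model as well.

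The highest Cxcl10 coefficients were those of Sprr1a, a cornified envelope protein of squamous epithelium (0.316 ± 0.0230), the macrophage elastase Mmp12 (0.254 ± 0.0259) and Ccl2 (0.252 ± 0.0138). All 3 fell with Ifit1 at fixed values of the others, at -0.169 ± 0.0239, -0.152 ± 0.0269 and -0.131 ± 0.0143. Adding the main axis gave Cxcl10 coefficients of 0.137 for Ccl2, 0.0697 for Sprr1a and 0.0314 for Mmp12, and the last no longer passed. At fixed values of the others, 9 of 13 chemokines rose with Cxcl10 and 9 fell with Ifit1, and with the main axis 7 and 7. When Ifit1 stood alone, 4 chemokines had risen with it and none had fallen.

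In this model, macrophage markers and fat storage genes mostly had coefficients of opposite sign for Ifit1 and Cxcl10. Of 16 macrophage markers 13 rose with Cxcl10, 12 rose with Gbp3 and 14 fell with Ifit1. With the main axis none passed with Cxcl10, 12 rose with Gbp3, and 1 rose and 4 fell with Ifit1. When Ifit1 stood alone, 4 of these markers had risen and none had fallen. Of the 6 lipid storage genes 5 fell with Ifit1 in the joint model and the same 5 rose with Cxcl10. Cidea had the lowest Ifit1 coefficient of all named genes at -0.292 ± 0.0388, and 0.222 ± 0.0373 for Cxcl10. When the main axis was added, the Cidea coefficient for Ifit1 was -0.131, 5 lipid genes fell with Ifit1 and none passed with Cxcl10.

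The steroid enzyme Hsd3b5 had the reverse signs, at 0.238 ± 0.0331 for Ifit1 and -0.207 ± 0.0319 for Cxcl10, and it also had the lowest coefficient for Gbp3 (-0.104 ± 0.0359). Cyp7b1, an oxysterol and steroid hydroxylase, was at 0.132 ± 0.0159 for Ifit1. Serpina4-ps1 was at 0.123 ± 0.0309. After adding the main axis, Hsd3b5 was at 0.100 and Cyp7b1 at 0.0578 for Ifit1, while Serpina4-ps1 no longer passed at 0.0713 and Hsd3b5 turned to 0.0427 for Cxcl10 without passing. These genes had large spreads of their own, with SDs of 0.482 for Hsd3b5, 0.240 for Cyp7b1 and 0.421 for Serpina4-ps1.

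**Figure D5:**
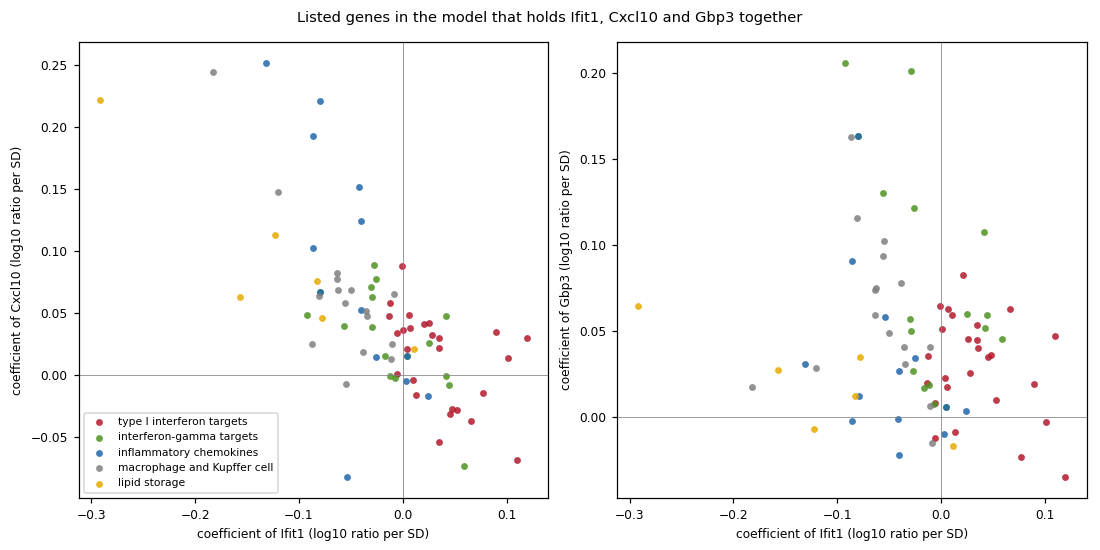
Each point is a listed gene in the joint model, with the Ifit1 coefficient across and the Cxcl10 (left) or Gbp3 (right) coefficient up, in log10 ratio per SD. Type I targets lie mostly right of 0, gamma targets mostly above 0 for Gbp3, and the lipid gene farthest left is Cidea at -0.292.

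Neighbours on the chromosome were related where they belong to the same family. In a cross, genes that lie close together share their genotype, so relations between neighbours can have that source, which was not tested. Among the measured genes, Ifit2, Ifit3 and Ifit1 lie next to each other on chromosome 19, and Ifit2 had r = 0.57 with Ifit1 and 0.68 with Ifit3. The death receptor Fas, in the same stretch, rose with Ifit1 (0.25) and Ifit3 (0.22), and the kinesin Kif20b rose with Ifit3 (0.24). Ch25h, which makes an antiviral oxysterol and lies between Fas and Ifit2, was at -0.0027 with Ifit1 and 0.012 with Ifit3. On chromosome 5, Cxcl9 and Cxcl11 flank Cxcl10 at 0.57 and 0.31. Of the 8 further neighbours of Cxcl10, 4 fell, namely U90926, Ppef2, Scarb2 and Shroom3, at -0.27 to -0.20 and with SDs under the median probe. Of all probes 33.9% fell with Cxcl10, and Scarb2 was at 0.0190 with the main axis. On chromosome 3, Gbp2b and Gbp2 follow Gbp3 at 0.59 and 0.73, and of the other 8 neighbours only Pdha2 passed, with r = -0.17.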

How the data were processed

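The values that the authors deposited, for 23562 probes in 302 columns, were read as log10 ratios without further normalization, and each column was matched to a mouse through its label. Per the labels, mouse RNA carried Cy3 and the pool Cy5. How the authors extracted, corrected and normalized the signals is not given in the sources used here, and 0.0831% of values were missing. The 23512 probes with values in at least 90% of mice were used, and 12620 of them carried a name for 10815 genes, updated to a gene table of GRCm38.p6. A gene with several probes was represented by the probe of widest SD within blocks.

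Slopes were fitted with limma 3.58.1 in R 4.3.3 on all 302 mice with the 4 blocks as a factor, two-sided, with Benjamini-Hochberg adjustment at 0.05 over all probes, and were tested on simulated data. Partial r comes from the same fits, and a count of genes that rose or fell is of those that passed. Pair permutations (100000) kept mice within blocks, and SD intervals (95%) used 1000 resamples of mice. Each mouse had 1 array and each of the 4 genes 1 probe, so errors of array and probe could not be estimated.

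Members, lists and tests were chosen with earlier results of these data known. Genes were drawn for naming by a rule, and those a result turns on are given: for each of the 4 genes, the 6 of highest and the 2 of lowest partial r; the 3 highest and the 1 lowest of each coefficient in the joint model; the 3 highest and the 1 lowest by mean r of every list; all signalling genes; and the 5 measured neighbours on each side. Genes named outside it were chosen after their values were seen. Alternatives covered the blocks, ranks, array scaling, the main axis, the wide arrays, complete probes, the farthest mice and, after seeing the data, mouse 333.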

Additional observations from a re-analysis of the deposited data

How the results depend on the processing

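Under every alternative run, all 6 pair correlations and the slopes of Cxcl10, Ifit3 and Ifit1 on mouse number kept their direction and passed. The slope of Gbp3 on mouse number passed in none, and its direction was not compared. With each gene fitted alone, the counts of type I, interferon-gamma and signalling genes that rose stayed within 1.5 times. Other counts moved. Without blocks, 3294 probes rose and 3923 fell with Ifit1, 2921 rose and 4211 fell with Ifit3, and 5285 rose with Gbp3. With the main axis 2774 rose and 3219 fell with Cxcl10. In the joint model the main axis gave 1341 and 1240 for Ifit1 and 1554 and 1400 for Cxcl10, Ifit3 in place of Ifit1 gave 1627 and 1888, and Gbp3 had 5772 and 6521 without blocks and 3547 and 4829 with Eif2s3y as the only block. With that block alone 8081 probes rose and 7646 fell with mouse number. The SD without blocks was 0.178 for Ifit1, 0.172 for Ifit3, 0.269 for Cxcl10 and 0.215 for Gbp3. It was 0.259 for Cxcl10 with Eif2s3y as the only block, and 0.130 for Gbp3 by the median absolute deviation.

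Among named genes 18 relations that had passed turned sign. With the main axis in the model these were, for Cxcl10, Cd209a (0.0393), Cd36 (-0.0956), Emcn (-0.0674), Ifngr2 (-0.0308), Irf2 (0.0638), Jak1 (0.0350), Orm2 (-0.0115), Pias1 (0.0119), Pparg (-0.156), Scarb2 (0.0190) and Stab1 (-0.221), and the joint coefficient of Hsd3b5 (0.0427). Without blocks they were Cd36 with Ifit1 (0.0286), Pemt with Ifit3 (0.0571), Cd68 (-0.156), Irf5 (-0.0400) and Orm2 (-0.0818) with Gbp3, and the joint coefficient of Ubd (-0.0455). The cause was not tested. Of the other comparisons of named genes and lists with an alternative, 116 newly passed, 96 no longer passed and 38 counts moved. The other 3364 stayed on the same side of the threshold or, for counts, within 1.5 times. Direction was compared only for relations that had passed. Among the counts that moved were some of the joint model: with the main axis 1 type I gene rose with Cxcl10 in place of 15, 1 interferon-gamma gene with Ifit1 in place of 5, and 3 signalling genes with Cxcl10 in place of 11. Averaging the probes of a member was not run, since each of the 4 genes has 1 probe, and averaging those of other genes was not tried. No paired analysis was possible because the labels give a single group of mice.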
